A study of Sus scrofa with 2 samples.

Results

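piRNA-sized reads with A at base 10 were taken from the small RNA of pig oocytes (Sus scrofa). A sequence counted as a member when it was 24 to 32 nt long, began with A, C or G and had A as base 10, counted from its 5′ end. Read counts played no part in this choice. The rule took 46390 of the 689709 distinct sequences in the Dicer KD library and 47207 of the 720572 in the control library, and over both libraries 78888 of 1166705. Sequences of the same lengths and first bases with C, G or T at base 10 served as the comparison sequences, 97808 in the Dicer KD library and 98264 in the control library.

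Both groups were oocytes matured in vitro for 42 h and labelled as metaphase II. In the Dicer KD group, Dicer had been targeted with siRNA in oocytes at the germinal vesicle (GV) stage before that maturation. The treatment field names knockdown of Dicer by siRNA for both samples, the control included, so the groups were told apart by their genotype labels, on which every ratio of Dicer KD to control rests. The labels do not give the number of oocytes, or any other treatment of the control oocytes. Each group was 1 library, so no test between the groups was possible, and each difference below is one between 2 libraries. The Dicer KD library held 11982925 reads and the control library 11836160. All intervals are exact 95% intervals and cover counting error alone, since PCR copies cannot be told from separate molecules here. Small RNA reads do not show the level of the Dicer transcript, so the knockdown itself was not checked. The sequences were not placed on a genome, and whether a member comes from a transposon, a gene or another RNA was not analysed here.

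piRNAs are small RNAs of germ cells that guide Piwi proteins, and they are made without Dicer. In the ping-pong cycle, described in flies and mice, a piRNA that begins with U (T in reads) guides the slicing of a complementary transcript, and the cut piece becomes the 5′ end of a new piRNA. The new piRNA then overlaps its guide by 10 nt at the 5′ ends, and its base 10 is the A that lies opposite the first U of the guide. A at base 10 in reads that do not begin with T is therefore one of the marks by which this cycle is recognised, and the 10-nt overlap is the other.

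The pairs below show this geometry, because the statement that members have partners rests on such sequences. A partner is a sequence that begins with T and whose first 10 nt are the reverse complement of the first 10 nt of the member. The 10 complementary bases are in capitals in both sequences, so that the last capital of each member is its A at base 10 and the first capital of each partner is its T. These are the 6 pairs with the most reads, ranked by the rarer of the pair, with partners of 24 to 32 nt and at most 1 pair for each first 15 nt of a member.
Pair 1 member: GTGAAGAGTAtagggtgattggaggc
Pair 1 partner: TACTCTTCACcccaaacatgtact
Pair 2 member: GCAGAACAAAggtgcatagactttagcct
Pair 2 partner: TTTGTTCTGCagaacacagtgcct
Pair 3 member: CACCATGGAAtcagtgttaggaac
Pair 3 partner: TTCCATGGTGctgattctctggaggcc
Pair 4 member: AGAATTAGGAtgttgacaactttg
Pair 4 partner: TCCTAATTCTgagaacctgtaaaaat
Pair 5 member: CTCCTGTGGAgtctctgctttgccct
Pair 5 partner: TCCACAGGAGacaggtgtagaccct
Pair 6 member: GACCACTGTAagttcaagaaagcct
Pair 6 partner: TACAGTGGTCtctcaacatcccct

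The most abundant members are shown next, because few 5′ ends carry much of the class and weigh heavily in values by reads. A start is the first 15 nt of a member, so that forms with 1 start differ mainly at their 3′ ends. Capitals again mark bases 1 to 10.
Member of 24 nt, most abundant start: GAGCAAGAGAgatagttgtactga
Member of 25 nt, same start: GAGCAAGAGAgatagttgtactgaa
Member of 29 nt, same start: GAGCAAGAGAgatagttgtactgaaaatt
Member of 24 nt, next start: AAGCAAGAGAgatagttgtactga
Member of 29 nt, same start: AAGCAAGAGAgatagttgtactgaaaatt
Member of 28 nt, sharing only bases 1 to 10 with it: AAGCAAGAGAtgaagaatactgaggatc
Member of 25 nt: ATCCATGCTAgacaaactgatccct
Member of 30 nt: ATTCATCTTAttcttgaagaaacctggcct

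Members made up a small and nearly equal part of both libraries. They held 367531 reads, or 30671 RPM (reads scaled to equal library totals; interval 30572 to 30771), in the Dicer KD library and 343319 reads, or 29006 RPM (28909 to 29103), in the control library. Their ratio of Dicer KD to control was 1.06 (1.05 to 1.06). The comparison sequences differed more, with 64693 RPM in the Dicer KD library and 58050 RPM in the control library, a ratio of 1.11 (1.11 to 1.12). Members were 4.88% of all reads of 24 to 32 nt in the Dicer KD library and 4.74% in the control library. Since RPM is a share, a ratio near 1 does not show that the amount per oocyte was equal.

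A at base 10 was more frequent than A at most other bases of the same reads, but by a modest margin. Among sequences that began with A, C or G, it was present in 32.2% of reads (32.1 to 32.3%) in the Dicer KD library and 33.3% (33.2 to 33.4%) in the control library. The median over the other bases from 2 to 24 was 26.3% in the Dicer KD library and 26.1% in the control library. Base 10 was not the highest by reads, since A at base 8 reached 38.7% and 39.8% in the same libraries. When each distinct sequence counted once, base 10 ranked first of these bases in both libraries. It then stood at 32.2% in the Dicer KD library, against at most 30.2% at any other base, and at 32.5% in the control library, against at most 30.4%.

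The share of members followed the first base. Among sequences that began with A, 38.2% of the reads were members in the Dicer KD library and 36.05% in the control library. For those that began with C the shares were 32.7% and 35.4% in the same order of libraries, and for those that began with G 25.8% and 28.2%. By distinct sequences the order was also A, C, G, with 33.7%, 32.4% and 29.2% in the Dicer KD library and 33.6%, 33.04% and 29.5% in the control library. With these first bases pooled, the most frequent base 10 by distinct sequences after A was G. It had 26.9% in the Dicer KD library and 26.4% in the control library, and C was the rarest with 17.02% and 17.15%. Among sequences that began with G, however, A did not lead. By distinct sequences, G stood at base 10 in 30.1% of them in the Dicer KD library and 29.7% in the control library. A was slightly lower, at the 29.2% and 29.5% given above. By reads, G was at 35.7% and 29.8% for the same libraries, and C also exceeded A in both.

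The share of members also differed with length. It was lowest in the longest sequences, with 4.86% of the 32-nt reads in the Dicer KD library and 6.28% in the control library. It was highest at 30 nt, with 43.95% in the Dicer KD library and 55.45% in the control library. With each sequence counted once, 30 nt was still the highest, but at 35.8% and 37.6% for the same libraries it stood within 2 percentage points of 29 nt. Forms of 24 nt held the most member reads, 24.6% of them in the Dicer KD library and 27.5% in the control library. Forms of 25 nt held 17.7% and 19.4%, forms of 28 nt 10.3% and 9.11%, and forms of 29 nt 14.5% and 12.9%, so that member reads had a smaller peak at 29 nt. Distinct members had none there, with 9.53% at 29 nt in the Dicer KD library and 8.88% in the control library, against 11.1% and 9.92% at 28 nt.

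Few starts carried a large part of the class, the 29-nt forms included. The start GAGCAAGAGAgatag held 42582 member reads in the Dicer KD library and 39182 in the control library, 11.6% and 11.4% of all member reads. Its reads were most frequent at 24 and 29 nt, with 36.1% at 24 nt and 37.5% at 29 nt in the Dicer KD library and 41.2% and 32.6% in the control library. At 28 nt it had 2.22% of its reads in the Dicer KD library and 1.89% in the control library. The start AAGCAAGAGAgatag, with 14533 and 11993 reads, showed the same form, with 50.9% of its reads at 29 nt in the Dicer KD library and 45.2% in the control library. The 29-nt sequences of these starts differ by 1 base, G1A, counted from the 5′ end and with the base of the more abundant start first. Among all reads with bases 2 to 18 of this sequence, 75.8% began with G and 24.2% with A in the Dicer KD library, and 77.7% and 22.3% in the control library. T was the first base of 2 such reads in the Dicer KD library and of 5 in the control library. The 10 most abundant of 47265 starts held 29.3% of member reads in the Dicer KD library and 28.7% in the control library.

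Partners were sought in the same library, among T-starting sequences of 24 to 32 nt with at least 10 reads. Each overlap was read over 10 nt, so that a partner at an overlap of 11 nt begins opposite base 11 of a sequence with A at that base, and so on up to 24 nt. Overlaps below 10 nt cannot be read over 10 nt and were left out. A match of 10 nt also occurs between unrelated sequences, and the other overlaps show how often. Members had a partner for 20.6% of their reads (20.5 to 20.8%) in the Dicer KD library, against a median of 5.17% and a range of 2.71 to 10.4% over the overlaps of 11 to 24 nt. In the control library they had one for 28.7% of their reads (28.6 to 28.9%), against a median of 5.02% and a range of 2.94 to 9.77%. The 10-nt overlap thus ranked first of the 15 overlaps in both libraries, at 3.99 times the median in the Dicer KD library and 5.72 times in the control library. Within single lengths this order did not always hold by reads. Members of 30 nt had a partner at 10 nt for 11.5% of reads in the Dicer KD library and 8.74% in the control library, against 37.9% and 42.5% at 18 nt. Members of 27 nt had one for 19.1% and 20.6% in the same libraries, against 35.3% and 34.1% at 17 nt. By distinct sequences the 10-nt overlap ranked first at both of these lengths in both libraries.

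The difference between the libraries in this share rested on the most abundant start. The partners of GAGCAAGAGAgatag were rare, and the most abundant of 24 to 32 nt had 7 reads in the Dicer KD library and 32 in the control library, on either side of the minimum of 10. Without this start, 23.3% of member reads had a partner in the Dicer KD library and 19.5% in the control library, so the order of the libraries turned round. Among distinct members the libraries were alike from the outset, with 10.3% (9.997 to 10.55%) in the Dicer KD library and 10.2% (9.96 to 10.5%) in the control library. Both values lay above every other overlap, whose range was 6.02 to 7.48% in the Dicer KD library and 5.91 to 7.62% in the control library, highest at 11 nt in each. The intervals of partner shares by reads and by distinct sequences count those with the same first 10 nt as separate. Since these share their partners, such intervals are too narrow.

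The excess of partners was largest in the abundant 5′ ends. With each 10-nt stretch counted once, however many sequences and reads carried it, 6.09% of the 22142 member stretches had a partner in the Dicer KD library and 6.12% of the 22879 in the control library. The medians at the other overlaps were then 5.91% in the Dicer KD library and 5.80% in the control library, so 10 nt hardly stood apart from them and ranked 5 and 3 of the 15 overlaps. Limiting the other overlaps to stretches that, like the members, begin with A, C or G gave medians of 5.16% in the Dicer KD library and 5.09% in the control library, and at most 5.49% and 5.52%. The 10-nt overlap then ranked first in both libraries, and also within each class of reads per stretch, at 1.18 times the median in the Dicer KD library and 1.20 times in the control library for all stretches. Of stretches with 1 read, 5.24% had a partner in the Dicer KD library, against a median of 5.60% at the other overlaps, and 5.32% in the control library, against 5.55%. With the first base limited in the same way, these medians were 4.77% in the Dicer KD library and 4.87% in the control library, so stretches with 1 read lay below the other overlaps or above them by this choice. Of those with at least 100 but under 1000 reads, 37 of 273 had one in the Dicer KD library (13.6%, interval 9.72 to 18.2%) and 45 of 270 in the control library (16.7%, 12.4 to 21.7%). The medians of the other overlaps in that class, with any first base, were 6.21% and 5.64% in the same libraries. Of stretches with 1000 or more reads, 12 of 41 had a partner in the Dicer KD library (29.3%, 16.1 to 45.5%) and 11 of 35 in the control library (31.4%, 16.9 to 49.3%). The other overlaps in that class reached at most 9.68% in the Dicer KD library and 10.5% in the control library.

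Members that began with A, C or G all had more partners at 10 nt than the median of the other overlaps. By reads, 28.5% of members that began with A had a partner in the Dicer KD library and 22.2% in the control library. These were 43752 and 33305 reads in the same libraries, and a large part of them began with AAGCAAGAGA. The starts AAGCAAGAGAgatag and AAGCAAGAGAtgaag had 14533 and 10783 reads in the Dicer KD library, and 11993 and 7930 in the control library. Their most abundant partner of 24 to 32 nt had 16 reads in the Dicer KD library and 33 in the control library, where the minimum was 10. For members that began with G the shares were 15.3% and 53.5% for the same libraries, and this class includes the most abundant start. For those that began with C they were 14.7% and 15.3%, below the overlap of 17 nt, which reached 21% in the Dicer KD library and 20.2% in the control library. By distinct sequences C stood highest, with 11.8% in the Dicer KD library and 11.5% in the control library, followed by A with 10.4% and 10.2% and G with 7.78% and 8.34%. Within each of these first bases the 10-nt overlap ranked first by distinct sequences in both libraries.

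Comparison sequences seldom had a partner opposite base 10. Here the partner had to begin with the complement of that base, and such partners are fewer, since most reads of this size begin with T. With G at base 10, 1.12% of distinct sequences had a partner in the Dicer KD library and 1.03% in the control library, against medians of 0.899% and 0.834% at the other overlaps. With T at base 10 the shares were 0.964% in the Dicer KD library and 0.998% in the control library, against 0.972% and 0.951%. With C they were 0.770% and 0.581% for the same libraries, against 0.572% and 0.533%. The ratios to these medians ran from 0.991 to 1.35, against 1.62 and 1.65 for members in the Dicer KD and control libraries. By reads, sequences with G at base 10 also stood above their other overlaps, at 0.735% in the Dicer KD library and 1.07% in the control library, 2.08 and 3.25 times the medians. An overlap other than 10 nt stood out as well. Sequences with T at base 11, whatever their base 10, had a partner at 11 nt for 1.75% of distinct sequences in the Dicer KD library and 2.12% in the control library. By reads these shares were 4.72% and 15.4%, against medians of 0.467% and 0.511% over 11 to 24 nt. An excess at 1 overlap was thus not particular to the members.

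Partners were not limited to piRNA-sized reads. With partners of 21 to 23 nt, 20.5% of member reads had one in the Dicer KD library, against a median of 3.71% at the other overlaps, and 18.3% in the control library, against 3.51%. Seen from the side of the partners, 2.34% of the distinct 23-nt sequences that began with T had a member of at least 10 reads opposite them at 10 nt in the Dicer KD library. The other overlaps gave a median of 0.785% and at most 1.39%. In the control library the value was 2.17%, against a median of 0.705% and at most 1.11%. By reads of the 23-nt sequences the order differed between the libraries, with 12.8% at 10 nt against at most 3.04% elsewhere in the Dicer KD library, and 11.3% against up to 24.3% in the control library. The 23-nt sequences did not stand alone, since T-starting sequences of each length from 18 to 31 nt had 2.04 to 3.41 times the median at 10 nt by distinct sequences. The start AAGCAAGAGAgatag and the start AAGCAAGAGAtgaag share their first 10 bases and thus their partners. Those of 21 to 23 nt had 1261 reads in the Dicer KD library and 1514 in the control library, against 118 and 159 reads for those of 24 to 32 nt.

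The 6 pairs shown above were present in both libraries. The member of pair 1 had 4806 reads in the Dicer KD library and 1313 in the control library, and its partner 1538 and 1872. The ratio of Dicer KD to control was therefore 3.62 (3.40 to 3.85) for the member and 0.811 (0.758 to 0.869) for the partner, on opposite sides of 1. The member of pair 2 had 1552 and 907 reads in the same libraries and its partner 1676 and 1358, with ratios of 1.69 (1.56 to 1.84) and 1.22 (1.13 to 1.31). Both sequences of pair 2 were thus higher in the Dicer KD library. In pair 3 the partner was the more abundant, with 12375 reads in the Dicer KD library and 11173 in the control library, against 1136 and 1237 for the member. A 21-nt form that begins like this partner had 20752 reads in the Dicer KD library and 26842 in the control library. The member of pair 4 had 688 and 365 reads in the Dicer KD and control libraries, a ratio of 1.86 (1.64 to 2.12), with 1314 and 1190 for its partner. The members of pairs 5 and 6 were lower in the Dicer KD library, with ratios of 0.829 (0.760 to 0.904) and 0.812 (0.698 to 0.944). Over the 6 pairs the ratios of members ran from 0.812 to 3.62 and those of the partners shown from 0.811 to 1.22, so members varied more than these partners. Shorter forms of the partners could lie lower. Those of 21 to 23 nt had ratios of 0.764 in pair 3, 0.574 in pair 4 and 0.824 in pair 6.

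Partners were mostly found again in the other library. Of the 2162 members with at least 10 reads in both libraries, 303 had a partner in both, 34 in the Dicer KD library alone, 66 in the control library alone and 1759 in neither. Members seen in both libraries were 18.6% of the distinct members but held 86.2% of member reads in each library. Members with a single read were 51.3% of the distinct members in the Dicer KD library and 57.1% in the control library.

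Most members of sufficient depth differed by less than 2-fold between the libraries. Of the 666 members whose reads in the Dicer KD and control libraries summed to at least 100, 46 were at least 2-fold higher in the Dicer KD library, or 6.91%. Among all 13658 sequences of any kind with that depth, 5.71% were higher by this much, so the share of members was close to the background. A further 42 members, or 6.31%, were at least 2-fold lower in the Dicer KD library, against 5.68% of all sequences. The median log2 ratio of Dicer KD to control was 0.06 over these members and -0.06 over all sequences. Of the 1058 comparison sequences of that depth, 128 were at least 2-fold higher, or 12.1%, and 50 were lower, or 4.73%. No replicate shows how many 2-fold differences arise within a group.

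Several of the members that differed by 2-fold were forms of the same start. The 46 higher members came from 31 starts, and 19 of them began with C. The 42 lower members came from 28 starts, with 25 that began with A, and 9 of them were forms of AAGGGGCAAAcattc. Among all distinct members, 33.3% began with C in each library, and 44.6% in the Dicer KD library and 45.2% in the control library with A. The first bases of the 666 members of sufficient depth were not counted, so no preference for a first base can be read from these counts. The start AAGGGGCAAAcattc had 3194 reads in the Dicer KD library and 7611 in the control library, a ratio of 0.414 (0.398 to 0.432). The start CCCCCCACAAccacg, which gave 4 of the higher members, had 8222 reads in the Dicer KD library and 3368 in the control library, a ratio of 2.41 (2.32 to 2.51). Neither of these starts had a partner of at least 10 reads in either library. The start of pair 1, GTGAAGAGTAtaggg, had partners and was the most changed of the 10 most abundant starts, with 7107 reads in the Dicer KD library and 2222 in the control library, a ratio of 3.16 (3.01 to 3.32).

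The members with the most extreme ratios are shown because other starts than the abundant ones lead them. Among members with a sum of at least 200 reads over the libraries, these had the 4 highest and then the 4 lowest ratios of Dicer KD to control.
Highest, of 27 nt: CCCTGGCGGAgcgctgagaagacggtc
Highest, of 28 nt, the same start: CCCTGGCGGAgcgctgagaagacggtcg
Highest, next start: CCCCCCACAAccacgtttgactgactgt
Highest, member of pair 1: GTGAAGAGTAtagggtgattggaggc
Lowest: AGTAAGGTCAgctaagctaagctatcgggc
Lowest, next start: ATGGCGAGAAttctattccctcttggggtg
Lowest, of 30 nt, a further start: AAGGGGCAAAcattcagaattcaggtgatc
Lowest, of 24 nt, the same start: AAGGGGCAAAcattcagaattcag

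The 27-nt member at the top of this list had 779 reads in the Dicer KD library and 2 in the control library, a ratio of 385 (106 to 3182). Its 28-nt form had 467 and 2 reads, a ratio of 231 (63.5 to 1910). These forms had a GC content of 70.4% and 71.4% and no partner, whereas the other 6 sequences of the list had 41.7 to 57.1% GC. The next in order had a ratio of 4.08 (3.58 to 4.65), far below them. The lowest ratio was 0.193 (0.141 to 0.261), with 52 reads in the Dicer KD library and 266 in the control library. The other low members had ratios of 0.282 to 0.305.

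The abundant members shown earlier lay between these extremes. GAGCAAGAGAgatagttgtactga had 15248 reads in the Dicer KD library and 16045 in the control library, a ratio of 0.939 (0.918 to 0.960). Its 29-nt form had 15760 and 12674 reads, a ratio of 1.23 (1.20 to 1.26), so that forms of 1 start moved in opposite directions. The 29-nt form of the next start, with 7293 and 5374 reads, had a ratio of 1.34 (1.29 to 1.39), and its 24-nt form 1.04 (0.998 to 1.09). ATCCATGCTAgacaaactgatccct had 4771 reads in the Dicer KD library and 6338 in the control library, a ratio of 0.744 (0.716 to 0.772), and no read of 21 to 32 nt was its partner. ATTCATCTTAttcttgaagaaacctggcct had 3927 and 4914 reads, a ratio of 0.789 (0.757 to 0.823). Summed over all members of 1 length, the ratio was 0.949 at 24 nt and 0.964 at 25 nt, between 1.17 and 1.2 from 26 to 29 nt, and 0.919, 0.856 and 0.964 at 30, 31 and 32 nt.

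Members with a partner stood slightly higher in the Dicer KD library than members without one. Of the 666 members with at least 100 reads, 160 had a partner of at least 10 reads in 1 or both libraries, and their median log2 ratio of Dicer KD to control was 0.27. The 506 without a partner had a median of 0.0016. Summed reads gave a ratio of 1.18 (1.17 to 1.19) with a partner and 0.979 (0.971 to 0.986) without one. Leaving out the most abundant start, the 153 members with a partner came from 68 starts and their summed ratio was 1.27 (1.26 to 1.29). They held 66499 reads in the Dicer KD library, and few starts carried many of these. Over all their forms, AAGCAAGAGAgatag, AAGCAAGAGAtgaag and GTGAAGAGTAtaggg had 14533, 10783 and 7107 reads there, with ratios of 1.20, 1.34 and 3.16. The ratio without these starts was not computed. The difference between members with and without a partner had no replicate, and the members of 1 start are not independent of each other.

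In other features the members differed from the comparison sequences more by reads than by distinct sequences. Leaving out base 10, distinct members had a mean GC content of 47.8% in the Dicer KD library and 47.9% in the control library, against 48.7% and 48.2% for comparison sequences. T was the last base of 37.8% of distinct members in the Dicer KD library and 37.4% in the control library, against 35.5% and 35.65%. By reads the GC content was 46.7% in members of the Dicer KD library and 46.99% in those of the control library, against 51.1% and 49.95% in comparison sequences. C was the last base of 20.05% of member reads in the Dicer KD library and 19.8% in the control library, against 28.8% and 30.9% of comparison reads. The 2 most abundant starts held 15.5% of member reads in the Dicer KD library and 14.9% in the control library. These features by reads were not computed without them. Distinct members with a partner had 46.1% GC in the Dicer KD library and 46.2% in the control library, and those without one 47.98% and 48.05%. Those with a partner less often began with G, at 16.7% in the Dicer KD library and 17.6% in the control library, against 22.7% and 21.99% of those without one.

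Many members overlapped more abundant sequences that began with T on the same strand. A sequence was called related when it shared 17 nt with such a sequence at an offset of 1 to 6 nt, or shared bases 2 to 18 with it. This held for 45.8% of distinct members in the Dicer KD library and 47.6% in the control library, close to the 47.05% and 48.8% of comparison sequences. In members, 33.6% of reads were of this kind in the Dicer KD library and 36.7% in the control library. The partner signal was clearest in the members that were not related to a T-starting sequence. Of these, 11.68% of distinct sequences had a partner at 10 nt in the Dicer KD library and 11.75% in the control library. Unrelated sequences with A at base 11, a different set, had one at 11 nt for 6.40% and 6.45% in the same libraries. Related members at 10 nt and related sequences with A at base 11 at 11 nt had nearly equal shares. These were 8.61% and 8.67% in the Dicer KD library and 8.57% and 8.81% in the control library. Whether related members are trimmed or shifted copies of the T-starting sequences was not tested.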

How the data were processed

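Total RNA of oocytes was extracted with TRIzol, adapters were ligated to small RNAs, and the products were amplified and sequenced on an Illumina HiSeq2000, per the labels' protocols. For each library, the deposited table lists every distinct read with its length, its raw count and its sequence, and the authors had not normalized these counts. The length column, deposited as a plain number, equalled the number of letters in every row. The submitters' processing notes name Bowtie2. Its use and version, the trimming and the genome build are not given in the sources used here.

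RPM was computed from all reads of a library. Shares have Clopper-Pearson intervals, RPM values Poisson intervals and ratios conditional binomial intervals. No p-value was computed. A 2-fold difference was a ratio of 2 or more, or of 0.5 or less, in sequences with 100 or more reads summed over the libraries. Sequences printed are the 8 most abundant members, the 4 with the highest and the 4 with the lowest ratio at 200 or more reads, and the 6 most abundant pairs. Other starts, partners of 21 to 23 nt named singly, the split by reads of a stretch and the related forms were chosen after values had been seen. The members, lists and searches were chosen with earlier results of these data known. The partner search and the ratio intervals were tested on simulated data. For the search these were random sequences of equal length and equal reads, without the repeated starts of the real libraries. That test therefore checks the calculation and not whether the other overlaps are a fair reference here. Partners were searched for by exact match of the first 10 nt, with no mismatch, and sequences holding N were left out. Alternatives changed the lengths, first base, read minimums, partner lengths and weighting. Software was scipy 1.17.1, pandas 2.3.3 and numpy 2.4.6 under Python 3.11.15.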

Additional observations from a re-analysis of the deposited data

How the results depend on the processing

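No paired analysis was possible because each group was 1 library, and for the same reason no library could be left out. Over all members, the 10-nt overlap stood above the median of the other overlaps under each alternative given here, though stretches with 1 read stood below it at 0.935 and 0.958 times with any first base. Its ratio to that median, 3.99 in the Dicer KD library and 5.72 in the control library, became, in the same order of libraries, 1.62 and 1.65 with each distinct sequence once, 1.03 and 1.06 with each 10-nt stretch once, 5.59 and 7.34 for members of 26 to 32 nt, 6.02 and 5.19 with A, 3.33 and 3.07 with C and 5.38 and 16.0 with G as the first base. It was 5.38 and 8.11 for sequences of at least 10 reads, 4.08 and 3.98 without the 10 most abundant sequences and 4.46 and 3.86 without the most abundant start. Partners of at least 1 read gave 1.78 and 1.64, of at least 100 reads 6.25 and 5.52, of 21 to 23 nt 5.54 and 5.22 and of any first base 3.87 and 5.27. Leaving out related T-starting forms gave 7.98 and 11.6, and matching the first of the 10 bases 6.69 and 9.55. The share of members, 32.2% and 33.3%, was 32.2% and 32.5% with each sequence once, 34.7% and 34.4% at 26 to 32 nt, 38.2% and 36.05% with A, 32.7% and 35.4% with C, 25.8% and 28.2% with G, 32.1% and 33.5% at 10 or more reads, 34.8% and 35.2% without the 10 most abundant sequences and 29.5% and 30.7% without the most abundant start. A at base 10 stood 5.83 and 7.24 percentage points above the median of other bases by reads, 4.39 and 4.55 with each sequence once, 6.15 and 8.01 at 10 or more reads and 8.16 and 8.56 without the 10 most abundant sequences. The log2 ratio of members, 0.08, was 0.043 relative to reads of 24 to 32 nt, 0.20 at 26 to 32 nt and 0.089 at 10 or more reads. Members 2-fold higher, 46 of 666, numbered 109 of 1203 (9.06%) at 50 reads, 8 of 158 (5.06%) at 500 reads and 27 of 367 (7.36%) at 26 to 32 nt, and those 2-fold lower, 42, numbered 95 (7.90%), 8 (5.06%) and 21 (5.72%). The share over all sequences was computed at 100 reads and for any length alone. These other shares thus have no background beside them and do not show a trait of members. The alternatives on the most abundant start, the 10-nt stretch, the first of the 10 bases and related forms were chosen after seeing the data. The rank and direction of rare members are limited by depth, since most distinct members had fewer than 10 reads.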

Other observations

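Sequences of 24 to 32 nt that began with T, which the members exclude by their first base, also had A at base 10, and more often than the members' own set. By reads A stood at base 10 in 66.8% of them in the Dicer KD library and 65.8% in the control library, against at most 42.7% and 41.1% at any other base from 2 to 24. By distinct sequences the shares were 42.1% and 41.2% for the same libraries. Of these distinct T-starting sequences with A at base 10, 28.7% had a T-starting partner at the 10-nt overlap in the Dicer KD library and 27.4% in the control library, against medians of 6.87% and 6.84% at overlaps of 11 to 24 nt. At 10 nt such a partner also has A at base 10, so both sequences of a pair can be counted. Counting each 10-nt stretch once, which left little of the excess in members, was not done for T-starting sequences.

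The level at the other overlaps also differed with the first base. When the other overlaps were limited to sequences with T at the first of the 10 bases, the medians were 9.86% in the Dicer KD library and 9.46% in the control library, so the 10-nt value was 2.91 and 2.89 times as high. The like limit for the members, to A, C or G at that base, gave medians of 5.53% and 5.34% and ratios of 1.86 and 1.92 for the same libraries. A partner of a member can never have A at base 10, because the member does not begin with T.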
